A study of Homo sapiens with 4 samples.

Results

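Open chromatin was examined at 36 genes known as shared targets of the p53 family, taken by name from the 20033 protein-coding genes of the annotation. The data are ATAC-seq peaks, stretches of DNA that a transposase could enter, from the established human foreskin fibroblast line BJ. The CTR group (2 samples) carried a doxycycline-inducible construct for KLF4 alone, and the p63 group (2 samples) carried ΔNp63α joined to KLF4 by a self-cleaving peptide. Both groups were treated with doxycycline to induce the constructs before ATAC-seq. Both therefore expressed the transcription factor KLF4, both were polyclonal lines, and cells without KLF4 were not analysed here. Each replicate was a new induction of the same lines, and 1 peak list was deposited for each group. The study's methods state that peaks were called from both replicates, but the names of the peaks point to 1 alignment per list that joins a pair of data sets, and these could be the replicates or the mates of 1 library. Therefore no value below has a spread between replicates and no p-value was computed. A peak was assigned to a gene when its summit lay in the gene body or within 25 kb of a transcription start site (TSS) of that gene, and peaks whose −log10 q reached 10 are called regions. By this rule the members held 140 of 56680 regions in the CTR list and 154 of 62343 in the p63 list. No region was near 2 members, but the closest protein-coding TSS was that of a member for only 80 of the CTR regions and 90 of the p63 regions, so a region named with a gene below can lie closer to a neighbour.

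The transcription factors p53, p63 and p73 share a DNA-binding domain of the same fold and bind the same kind of response element as tetramers. The element is a pair of decamers, each with a C and a G around a core of A or T and with purines before and pyrimidines after it. p53 uses such elements to turn on genes of cell cycle arrest, cell death, DNA repair and metabolism after damage, and also its own inhibitors. ΔNp63α, the main isoform of basal keratinocytes, lacks the N-terminal transactivation domain of TAp63, can occupy elements that p53 also uses, and can open closed chromatin. The question addressed here was whether the response elements of these genes were open before ΔNp63α was present.

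The sequences that the question turns on are the response elements themselves. Every 20 bp stretch of GRCh38 (hg38) with the C and G of both decamers in place and at most 3 mismatches to the family consensus at the other 16 positions was called a family site. A match is a description of the letters and is no evidence of binding. The windows of the 36 members held 221 family sites. Of the 17 sites with at most 2 mismatches that lay in a region of either list, 15 are shown next, and the other two, at TNFRSF10B and EDA2R, are described with their genes. They are written 5′ to 3′ on the strand of the gene, and the capitals mark the 4 core bases of each decamer. The sites with 1 mismatch are these:
CDKN1A, chr6:36667258-36667277, plus strand: agaCAAGcccgggCAAGgcc
GADD45A, chr1:67686775-67686794, plus strand: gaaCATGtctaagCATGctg
CCNG1, chr5:163437926-163437945, plus strand: gcaCAAGcccaggCTAGtcc
DDB2, chr11:47214969-47214988, plus strand: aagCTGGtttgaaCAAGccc
EDA2R, chrX:66638713-66638732, minus strand: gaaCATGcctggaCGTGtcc
GDF15, chr19:18373947-18373966, plus strand: agaCCTGcccggaCATGtcc
Of the 11 open sites with 2 mismatches, 9 are the following:
MDM2, chr12:68808923-68808942, plus strand: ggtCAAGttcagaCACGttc
ZMAT3, chr3:179046875-179046894, minus strand: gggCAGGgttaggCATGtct
FBXO22, chr15:75947298-75947317, plus strand: ggaCCAGccaaaaCATGctt
FAS, chr10:88991309-88991328, plus strand: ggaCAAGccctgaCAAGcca
BAX, chr19:48955213-48955232, plus strand: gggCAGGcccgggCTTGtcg
PMAIP1, chr18:59899549-59899568, plus strand: gggCTTGtttaccCAAGtct
AEN, chr15:88621306-88621325, plus strand: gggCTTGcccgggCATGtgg
SPATA18, chr4:52051957-52051976, plus strand: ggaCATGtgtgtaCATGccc
CMBL, chr5:10307584-10307603, minus strand: acaCAAGcccacaCAAGccc
The element of the CDKN1A promoter that the study used as an oligonucleotide had a single match in the genome, at chr6:36676449-36676468, and carried 2 mismatches:
CDKN1A promoter element, plus strand: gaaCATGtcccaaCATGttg

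Most of the accessible sites were accessible without ΔNp63α. Of the 221 family sites, 23 (10.4%, 95% Wilson interval 7.04% to 15.1%) lay in a CTR region and 34 (15.4%, 11.2% to 20.7%) in a p63 region. Each of the 23 was also in a p63 region, so that 23 of the 34 open sites (67.6%, 50.8% to 80.9%) were already open in CTR and 11 were open in p63 alone. Over the genome, 39.0% of 4657 open family sites were already open in CTR and 61.0% were not. Around all protein-coding genes the already open share was 40.8% (1353 of 3313), and around 33 other genes of the p53 pathway it was 3 of 9. The intervals cover counting error only, and sites of 1 promoter can share a region.

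The remaining 187 sites lay in no region of either list, and 183 of them overlapped no deposited peak at all. Among these were both sites of the members without a mismatch, at PLK2 (chr5:58462274-58462293, 2197 bp before the TSS) and in intron 1 of ZMAT3 (chr3:179070188-179070207). Both of these closest matches to the consensus were thus closed in both lists. Over the genome, 2.55% of the 549 sites without a mismatch were open in CTR and 16.8% in p63. Of the 9 sites with 1 mismatch, 4 were open in CTR and 6 in p63. Of the 26 with 2 mismatches the counts were 9 and 11, and of the 184 with 3 mismatches they were 10 and 17. The genome shares open in CTR were 2.01%, 1.70% and 1.27% for 1, 2 and 3 mismatches. In p63 they were 8.34%, 5.29% and 2.78%.

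Position went with the state of a site. Of the 62 sites within 3 kb of a member's TSS, 20 (32.3%) were open in CTR, against 614 of 16475 (3.73%) for all protein-coding genes. Of the 159 farther sites, 3 (1.89%) were open in CTR, against 739 of 67660 (1.09%). Promoter sites that were open at all were mostly open beforehand, 20 of 25 (80%, 60.9% to 91.1%) at the members and 614 of 1117 (55.0%, 52.0% to 57.9%) at all protein-coding genes. Among farther open sites the already open share was alike, 3 of 9 (33.3%, 12.1% to 64.6%) at the members and 739 of 2196 (33.7%) at all protein-coding genes. Promoter sites made up 25 of the 34 open sites at the members and 1117 of 3313 at all protein-coding genes. The higher already open share of the members was thus seen at promoter sites only. The median distance from the canonical TSS was 438 bp for the 23 sites open in both lists, 3938 bp for the 11 open in p63 alone and 13020 bp for the closed sites. At least 1 site open in CTR was found at 20 of the 36 genes (55.6%), against 9.59% of all protein-coding genes. A further 5 genes (SFN, PHLDA3, XPC, ZMAT3 and EDA2R) had an open site in p63 alone (13.9%, against 9.86% of all protein-coding genes). The other 11 had no open site, as did 16136 of the 20033 protein-coding genes.

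**Figure D1:**
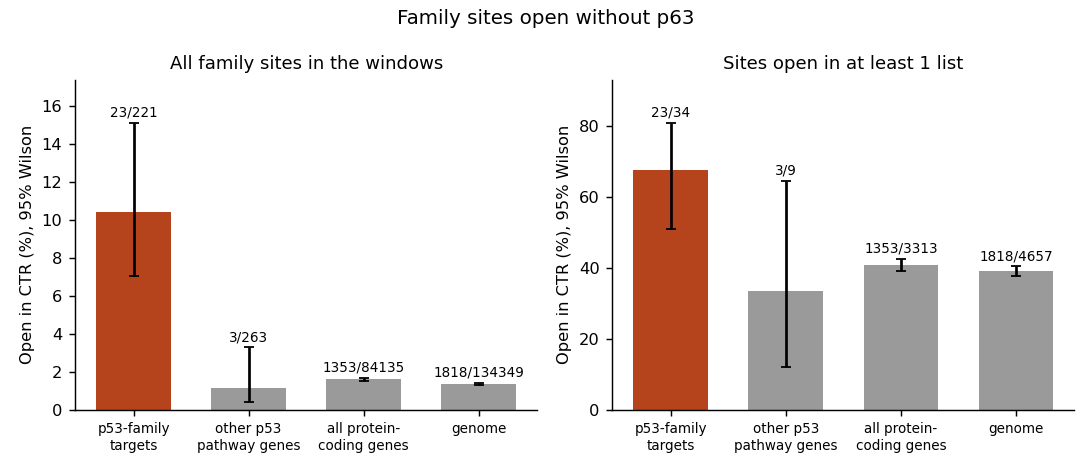
Share of family sites that lay in a CTR region (y axis, percent), among all sites of the windows (left) and among sites open in at least 1 list (right). Bars give the share with its 95% Wilson interval, and the fraction above each bar its counts. The 36 targets reach 10.4% and 67.6%, and the genome 1.35% and 39.0%.

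The peaks over the sites that were open in both lists had similar fold enrichment in CTR and p63. Reads and fold enrichment given for a site, here and below, are those at the summit of its peak, not at the site. In CTR that summit lay a median of 214 bp and up to 1003 bp from the site. The p63 summit lay a median of 119 bp and up to 1003 bp away. Fold enrichment, the ratio of the reads at the summit of the peak to the local background, had a median of 10.1 in CTR and 11.1 in p63 over these 23 sites, with ranges of 4.64 to 15.9 and 6.03 to 19.4. The reads at the summit had a median of 52 and 63. Since both lists have their own depth, ratios are given relative to the median of all 46820 regions paired between the lists, a log2 ratio of 0.05. On this scale 18 of the 23 sites were above the median, and 0 of 23 were 1.5-fold above or below it. Counted by pairs, 16 of the 23 member pairs whose p63 peak held a site were above the median. Of these member pairs 0 were at least 1.5-fold above it and 1 (4.35%) was at least 1.5-fold below. Over the genome, 1137 of the 1893 pairs whose p63 peak held a site were above the median. Of these pairs 7.29% were at least 1.5-fold above it and 1.32% at least 1.5-fold below. At PMAIP1 and SPATA18 a pair of sites shared the same region and is counted site by site.

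**Figure D2:**
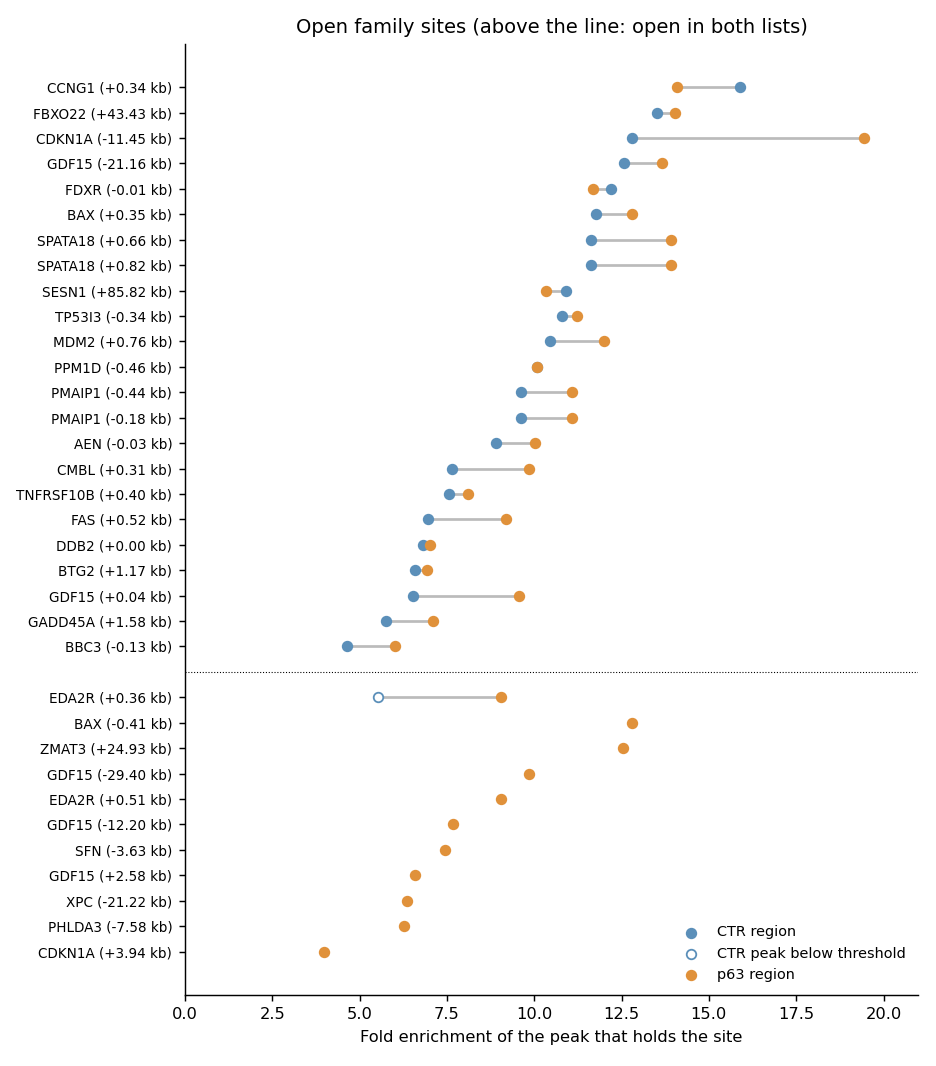
Fold enrichment (x axis) of the peak that holds each of the 34 open family sites, with the gene and the distance from its canonical TSS on the y axis. Blue points are CTR regions, the open circle is a CTR peak under the threshold, and orange points are p63 regions. Of the upper 23 sites, 0 are 1.5-fold from the median ratio, and the CDKN1A site 11447 bp upstream has the widest gap (12.8 in CTR, 19.4 in p63). At 10 of the lower 11 no CTR peak covers the site.

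The genes of cell cycle arrest held 27 CTR regions and 33 p63 regions. CDKN1A, which encodes the cyclin-dependent kinase inhibitor p21 (ENSG00000124762.14, chromosome 6, 36676460 to 36687337, plus strand), was examined in most detail because its promoter element was measured by the study. That element lies 2256 bp before the canonical TSS and overlapped no peak of either list, at any threshold. The first base of the annotated gene falls inside it. Another site with 1 mismatch, 11447 bp before the TSS, lay in the strongest region of the locus. Its region had 45 reads at the summit (95% Poisson interval 32.8 to 60.2) and a fold enrichment of 12.8 in CTR, and 118 reads (97.7 to 141) and 19.4 in p63, over a local background of 2.59 and 5.12 reads. This was 1.47-fold above the median ratio, and of the 23 sites open in both lists it was the only one whose read intervals did not overlap.

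The CDKN1A locus had 4 regions in CTR, each also present in p63, and 2 more in p63 that overlapped no CTR peak. One of these, chr6:36659358-36659589, lay 19200 bp before the TSS with 36 reads and a fold enrichment of 9.22. The other, chr6:36682383-36682797, lay in intron 1 over a site with 3 mismatches (36682643 to 36682662) and had 58 reads but a fold enrichment of 3.98. The TSS region itself went the other way, with 61 reads and a fold enrichment of 5.12 in CTR against 62 reads and 3.94 in p63, 0.74 of the median ratio. The reads at the TSS were nearly equal, while the local background solved from the peak values was 11.1 reads in CTR and 14.99 reads in p63.

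**Figure D3:**
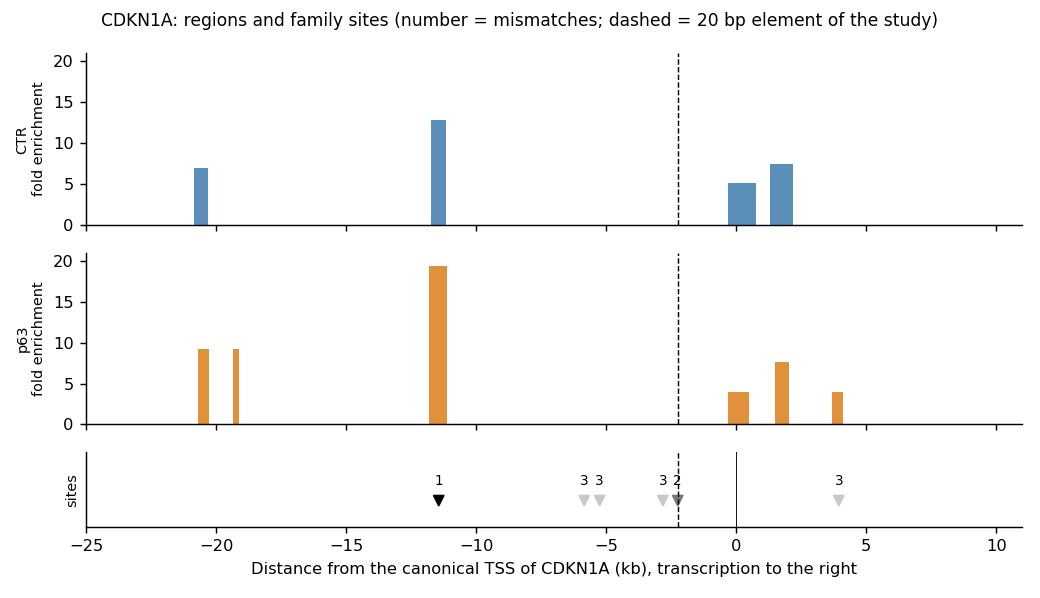
Regions of CTR (blue) and p63 (orange) at CDKN1A by distance from the canonical TSS (x axis, kb), with the fold enrichment as height and the peak as width. Triangles mark family sites with their number of mismatches, and the dashed line marks the promoter element of the study. The region around the site 11447 bp upstream is the highest in both lists, and the dashed line meets no region.

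SFN, which encodes stratifin, a brake on the cell cycle after DNA damage, had no region at its TSS in either list. Upstream of it, p63 cells had a region at chr1:26858838-26859533 with 56 reads and a fold enrichment of 7.44, where the CTR list held no peak. Its summit lay 3920 bp before the TSS, and a site with 3 mismatches ended at its last base. A further p63 region without a CTR peak, chr1:26887235-26887677 (42 reads, 8.51), lay closer to GPN2.

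In GADD45A, a growth arrest gene, the site in intron 3 was open in both lists, with 80 reads and a fold enrichment of 5.76 in CTR and 109 reads and 7.11 in p63. In CCNG1, which encodes cyclin G, the site in intron 1 had 99 reads and 15.9 in CTR and 88 reads and 14.1 in p63, the highest CTR fold enrichment of any open site. BTG2, an antiproliferative gene, had a site with 3 mismatches in intron 1 with 44 reads and 6.59 in CTR and 57 reads and 6.94 in p63. These 3 sites were thus open in both conditions at read counts whose intervals overlapped. BTG2 also had a p63 region without a CTR peak 15797 bp before the TSS (27 reads, 8.18).

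The polo-like kinase genes PLK2 and PLK3 had no open site. PLK2 gained a region at chr5:58483125-58483594 (18 reads, 8.33), which lay closer to GAPT, and a shared region 6997 bp before its TSS went from 17 reads and 8.26 to 24 reads and 11.7, 1.37-fold above the median ratio with overlapping read intervals. PLK3 had 5 regions, each shared.

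For description, 5 genes were grouped under p53 feedback, a label that was not tested in these data. Among them, the site of MDM2, the ubiquitin ligase of p53, was open in both lists. It lies in intron 1, where the second promoter of MDM2 is found, 755 bp after the canonical TSS, with 77 reads and a fold enrichment of 10.4 in CTR and 89 reads and 12.0 in p63. The p63-only region with the highest fold enrichment of all members stood in the same window, at chr12:68787142-68787798, closer to SLC35E3, with 45 reads and 14.9. The CTR list had a peak there below the threshold, with a −log10 q of 9.25 and 14 reads. PPM1D, a phosphatase that ends damage signalling, had a site 464 bp before its TSS with 102 reads and 10.1 in CTR and 100 reads and 10.1 in p63.

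ZMAT3, an RNA-binding zinc finger gene, had a site in intron 2 that no CTR peak covered, in a p63 region of 26 reads and a fold enrichment of 12.5. A CTR peak below the threshold (14 reads, −log10 q of 9.25) overlapped that region beside the site. A second ZMAT3 region in the same intron had the lowest ratio of all member pairs, with 26 reads and 11.8 in CTR and 15 reads and 7.52 in p63, 0.61 of the median ratio. Its read intervals overlapped. The site assigned to FBXO22, an F-box gene of a ubiquitin ligase, lay closer to NRG4 and had 50 reads and 13.5 in CTR and 80 reads and 14.04 in p63. TRIM22, another ubiquitin ligase, had a single region, closer to TRIM5, with 105 and 114 reads.

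The death receptor genes carried open sites in 3 of 4 cases. In FAS, the receptor of the FAS ligand, the site in intron 1 had 52 reads and a fold enrichment of 6.96 in CTR and 75 reads and 9.21 in p63, 1.28-fold above the median ratio. In TNFRSF10B, a receptor of TRAIL with 7 p63 regions, the site in intron 1, 400 bp after the TSS, had 40 reads and 7.57 in CTR and 46 reads and 8.10 in p63. Both were open in CTR, and their read intervals overlapped between the lists. TNFRSF10A, the other TRAIL receptor, had no open site and no TSS region. One of its 4 shared regions, 12210 bp before the TSS and closer to CHMP7, had 18 reads and 8.72 in CTR and 45 reads and 16.6 in p63. It was 1.83-fold above the median ratio, the highest of all member pairs, with read intervals that did not overlap.

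EDA2R, the receptor of ectodysplasin A2, was the member whose TSS region was open in p63 and not in CTR. Its region chrX:66638437-66638989 had 36 reads (25.2 to 49.8) and a fold enrichment of 9.04 in p63, while the CTR peak had 18 reads (10.7 to 28.4), 5.52 and a −log10 q of 8.49, under the threshold. The read intervals overlapped. The region holds both a site with 1 mismatch, which the CTR peak covered, and one with 2 mismatches (66638563 to 66638582), which it did not. EDA2R also had a p63 region without a CTR peak in intron 1 (17 reads, 8.46), 16629 bp after the TSS, and 1 CTR-only region in the same intron.

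The 11 genes of mitochondrial and other cell death had 50 CTR regions and 47 p63 regions, and 9 of their 11 open sites were already open in CTR. In BBC3, which encodes the BH3 protein PUMA, the site 130 bp before the TSS had 45 reads and a fold enrichment of 4.64 in CTR and 60 reads and 6.03 in p63, the lowest fold enrichment of each list among sites open in both. The PMAIP1 (NOXA) promoter held a pair of sites in 1 region with 83 reads and 9.62 in CTR and 94 reads and 11.1 in p63. BAX, the effector of mitochondrial permeabilisation, had a site in intron 1 with 52 reads and 11.8 in CTR and 59 reads and 12.8 in p63. The p63 region of BAX reached farther upstream and also covered a site with 3 mismatches 411 bp before the TSS, which the CTR region did not reach.

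SPATA18, a gene of mitochondrial quality control, had a pair of sites in intron 1 with 43 reads and a fold enrichment of 11.6 in CTR and 57 reads and 13.9 in p63. A shared region of its window, closer to SGCB, had 28 reads and 11.6 in CTR and 18 reads and 8.93 in p63, 0.74 of the median ratio. AEN, an apoptosis nuclease, had a site 25 bp before its TSS with 69 reads and 8.90 in CTR and 63 reads and 10.04 in p63. TP53I3, a quinone oxidoreductase, had 105 and 120 reads at a site 340 bp before its TSS, and FDXR, the ferredoxin reductase, had 122 reads in both lists at a site 11 bp before its TSS. At each of these sites the read intervals of both lists overlapped. PHLDA3, a repressor of AKT signalling with 8 p63 regions, was the only gene of the group with an open site in p63 alone and none in CTR, in a region without a CTR peak at chr1:201476681-201477066 (39 reads, 6.27), 7649 bp before its TSS.

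PIDD1, a death domain adaptor, had 8 regions in each list, each shared, and no open site. One of them, closer to GATD1, had 44 reads and a fold enrichment of 8.44 in CTR and 31 reads and 6.43 in p63, 0.74 of the median ratio. TP53INP1, a stress-induced nuclear protein, had 2 regions, both shared. TRIAP1, a mitochondrial inhibitor of apoptosis, had a strong TSS region in both lists (16.2 in CTR, 13.6 in p63) and a p63 region without a CTR peak that lay closer to COX6A1 (30 reads, 5.01).

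The 4 genes of DNA repair and nucleotide supply had 14 CTR regions and 19 p63 regions. DDB2, which recognises ultraviolet damage, had its site in the untranslated part of exon 1, 4 bp after the TSS, with 60 reads and a fold enrichment of 6.81 in CTR and 63 reads and 7.03 in p63. Of its 8 p63 regions, 3 were p63-only, and the one without a CTR peak (chr11:47259331-47259729, 30 reads, 8.85) lay closer to NR1H3. XPC, the partner of DDB2 in damage recognition, had the highest TSS region of the members, with 139 reads and 16.9 in CTR and 140 reads and 17.3 in p63.

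XPC also gained regions. One lay in intron 11 (chr3:14150297-14150935), within 3 kb of another annotated start of the gene, with 37 reads and a fold enrichment of 12.0 and no CTR peak. The other lay 21243 bp before the TSS and closer to LSM3 (22 reads, 6.35) and held a site with 3 mismatches. A shared region in intron 2 went from 26 reads and 6.24 to 37 reads and 10.8, 1.66-fold above the median ratio, with overlapping read intervals. POLH, a polymerase that copies past damage, had 1 p63-only region that was weak in CTR, and RRM2B, a subunit of ribonucleotide reductase, had 2 shared regions. Neither had an open site.

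Among the 5 genes of stress and metabolism, GDF15, a secreted stress cytokine, had the most p63 regions of any member, 9, and the most open sites, 5. The site at the TSS, in the coding part of exon 1, had 19 reads (11.4 to 29.7) and a fold enrichment of 6.54 in CTR and 39 reads (27.7 to 53.3) and 9.57 in p63, 1.41-fold above the median ratio. The site 21162 bp upstream, closer to PGPEP1, had 39 and 42 reads and was open in both lists. The other 3 were open in p63 alone.

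Of these 3 sites, one lay in the coding part of exon 2 (region chr19:18388501-18388896, 26 reads, 6.60) and one 29398 bp upstream, closer to PGPEP1 (region chr19:18356633-18356828, 20 reads, 9.86), both without a CTR peak. The third, with 1 mismatch and 12202 bp before the canonical TSS, lay in a p63 region whose CTR counterpart did not extend over it. That region had a lower fold enrichment in p63 than in CTR, 7.68 with 35 reads against 11.8 with 44 reads, 0.63 of the median ratio. GDF15 thus had regions that moved both ways, and each of these read intervals overlapped between the lists.

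SESN1 and SESN2 encode sestrins, which restrain growth signalling under stress. SESN1 had a site in intron 1 with 47 reads and a fold enrichment of 10.9 in CTR and 51 reads and 10.3 in p63. It also had a p63 region without a CTR peak elsewhere in intron 1 (chr6:109050098-109050463), with 31 reads and 13.8, the highest fold enrichment of the regions without a CTR peak. SESN2 and TIGAR, a regulator of glycolysis, had no open site and no list-only region. CMBL, a hydrolase gene, had a site in intron 1 with 41 reads and 7.66 in CTR and 56 reads and 9.84 in p63.

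At the level of regions, 128 of the 154 p63 regions (83.1%, 76.4% to 88.2%) overlapped a CTR region and 26 (16.9%) were p63-only, where 23.9% of all p63 regions were p63-only. Regions without any CTR peak numbered 15 (9.74%), with 12.0% in the whole list. In the other direction, 129 of 140 CTR regions (92.1%, 86.5% to 95.6%) overlapped a p63 region and 11 (7.86%) were CTR-only, against 16.5% of the whole list. A single one, between BAX and FTL and closer to FTL (chr19:48962331-48962557, 36 reads, 4.18), overlapped no p63 peak, where 3.29% of all CTR regions did. The 33 other pathway genes gave 117 of 144 (81.2%) and 117 of 136 (86.0%).

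Many of the members' regions lay at promoters. Within 3 kb of any annotated TSS were 107 of the 154 p63 regions (69.5%) and 39.4% of the whole list. Of these promoter regions 95 (88.8%) were already open in CTR, against 84.2% in the whole list. Outside promoters the shares were 33 of 47 (70.2%, 56.0% to 81.4%) and 70.8%. Of the 26 p63-only regions, 12 (46.2%) lay within 3 kb of any annotated TSS, against 26.0% in the whole list. Of the 11 CTR-only regions, 5 (45.5%) did, against 24.5%. Within 3 kb of a TSS of the member itself there were 4 of the 26 p63-only regions and 0 of the 11 CTR-only regions.

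By gene, 17 of 36 (47.2%) had at least 1 p63-only region, where 43.6% of protein-coding genes did, and 11 (30.6%) had at least 1 CTR-only region, where 29.9% did. Both kinds were found at 5 genes (SFN, PHLDA3, DDB2, TRIAP1 and EDA2R), for which no count over all genes is given. Neither kind was found at 13 of 36 members and at 8722 of 20033 protein-coding genes, which include 2149 genes without any region. The number of regions was similar at most genes, with a median of 4 in each list and a range of 1 to 9 in p63. Of the p63 regions, 7 of 33 were p63-only at cell cycle arrest genes, 6 of 19 at DNA repair genes and 3 of 47 at the 11 cell death genes, beside 23.9% of the whole list. Of the CTR regions, 1 of 27, 1 of 14 and 6 of 50 were CTR-only, beside 16.5% of the whole list. For the p53 feedback, death receptor, and stress and metabolism genes, the p63-only counts were 3 of 17, 3 of 17 and 4 of 21. Their CTR-only counts were 0 of 14, 2 of 16 and 1 of 19. These counts are small, and differences between the groups of genes were not tested.

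**Figure D4:**
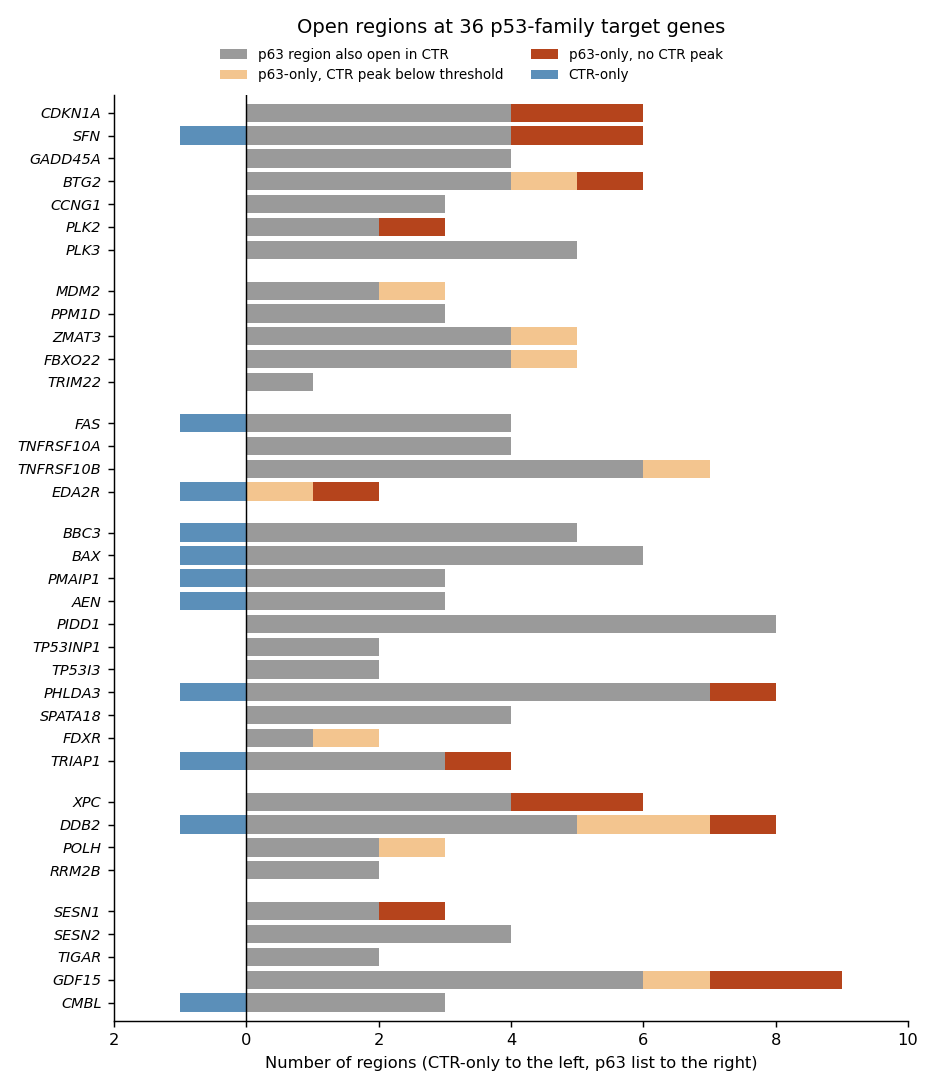
Number of regions at each of the 36 genes (x axis), grouped by role. To the right are p63 regions that were also open in CTR (grey), p63-only with a CTR peak below the threshold (light orange) and p63-only without a CTR peak (red). CTR-only regions are to the left (blue). GDF15 and DDB2 have 3 p63-only regions each, and EDA2R is the only gene without a shared region.

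The p63-only regions had fewer reads at the summit than the shared ones. Their median was 29 reads at the summit, with a range of 17 to 58, against 58 reads for shared p63 regions. For the 11 that had a CTR peak below the threshold, the median was 26 reads in p63 and 14 reads in CTR, and the −log10 q of the CTR peak ranged from 3.82 to 9.996. Both contrasts are partly built into the definition, since a p63-only region has no CTR region at the threshold. No whole-list value is given beside them. The members nearest to the threshold were a BBC3 region at 10.3 inside and a FDXR peak at 9.996 outside in CTR, and a TNFRSF10B region at 10.2 inside and a BTG2 peak at 9.90 outside in p63. When peaks of any −log10 q were used, 176 of 218 p63 peaks (80.7%) and 177 of 203 CTR peaks (87.2%) at the members overlapped a peak of the other list, against 72.9% and 78.6% of the whole lists.

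Family sites close to the summit were counted in p63-only and shared regions. A site within 100 bp of the summit was present in 6 of 26 p63-only regions (23.1%, 11.03% to 42.1%), at PHLDA3, GDF15 (2 regions), XPC, CDKN1A and EDA2R. The share was 11.4% among all p63-only regions. Among shared p63 regions it was 10 of 128 (7.81%, 4.299% to 13.8%) at the members, with an interval that overlapped that of the p63-only regions, and 1.39% in the whole list. In CTR it was 6 of 129 shared regions (4.65%) and 0 of 11 CTR-only regions, which allows a share of up to 25.9% by the Wilson interval. Around the other pathway genes it was 5 of 27 p63-only regions and 0 of 117 shared ones.

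Regions present in both lists had nearly the same fold enrichment. Over 127 member pairs the median log2 ratio of p63 to CTR was 0.04, against 0.05 for all pairs. At least 1.5-fold above the median ratio were 2 pairs (1.57%, against 2.23% of all pairs), at TNFRSF10A and in intron 2 of XPC. At least 1.5-fold below were 2 pairs (1.57%, against 2.01%), at ZMAT3 and GDF15. Read intervals failed to overlap in 2 of 127 pairs, those of TNFRSF10A and of the CDKN1A upstream site. These reads are not scaled between the lists, and no share over all pairs is given beside the count. It is therefore a description of these pairs only. The 23 pairs whose p63 peak held a site had a median of 0.12, as did the 1893 such pairs of the genome, and the 104 without a site had a median of 0.03. The 23 pairs with a site are not the same set as the 23 sites open in both lists.

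**Figure D5:**
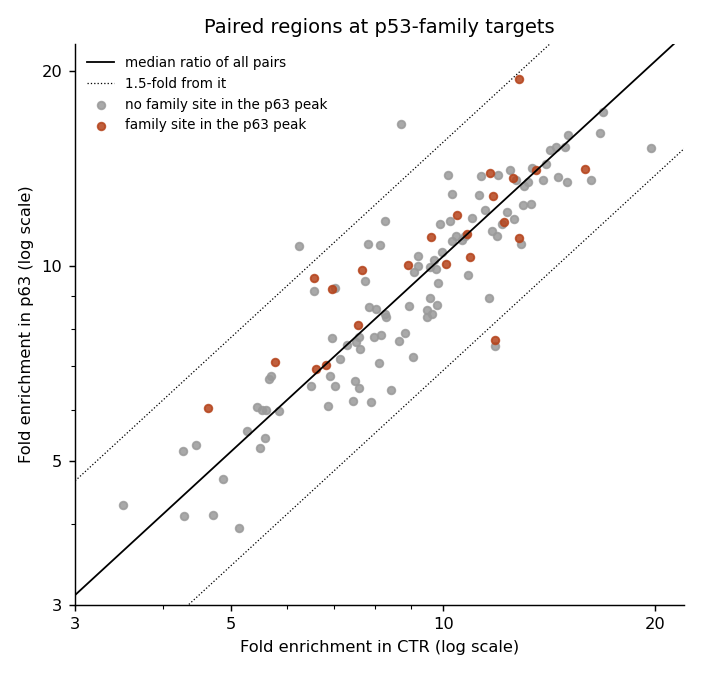
Fold enrichment of 127 paired member regions in CTR (x axis) and p63 (y axis), both on log scales. Red points have a family site in the p63 peak. The solid line is the median ratio of all pairs, and the dotted lines lie 1.5-fold from it. Above the upper line are 2 points, and 2 lie below the lower one.

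The promoters of the members were open in both conditions for most genes. A region with its summit within 1000 bp of the canonical TSS was found at 31 of 36 members in CTR and at 32 in p63, against 58.6% and 58.9% of all protein-coding genes. SFN, TRIM22, TNFRSF10A and PIDD1 had none in either list, and EDA2R had one in p63 alone. Other annotated starts were not counted here. PIDD1 had a shared region at another of its starts, with 109 reads in CTR and 101 reads in p63. Over the 31 genes with both, the log2 ratio relative to the median ranged from −0.43 at CDKN1A to 0.50 at GDF15. Fold enrichment at the TSS had a median of 9.91 in CTR and 10.9 in p63.

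As a check of the cell type, a TSS region was present in CTR at 4 of 6 fibroblast genes (COL1A2, VIM, TWIST2 and PDGFRB, but not COL1A1 or COL3A1) and at 0 of 6 keratinocyte genes, and the counts were the same in p63. The members' regions were wider than those of the whole lists, with a median width of 668.5 bp against 575 bp in CTR and 647.5 bp against 542 bp in p63. Accessibility does not measure expression, and the peak lists hold no reads between peaks, so a site called closed is one that no region overlapped.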

How the data were processed

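Chromatin accessibility was measured by ATAC-seq in 2 CTR and 2 p63 samples, grouped by their titles. Per the submitters' processing notes and the study's methods, reads were aligned to hg38 by Bowtie2 2.3.4.3, and MACS2 peaks were called from the replicates of each group, giving 1 list per group. The peak names do not settle whether their pair of inputs was the replicates or the mates of 1 library. The MACS2 version and options, duplicate removal, the transposase shift, excluded regions and library totals were not given in the sources used here. Any reads kept as duplicates would raise the summit values. In the deposited lists each peak has a fold enrichment (the ratio of pileup to local background, each plus 1), a −log10 p, a −log10 q, a display score and the offset of the summit from its start. The deposited score was not used in any result. None of these values was scaled between the lists by the authors.

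Peaks on chromosomes 1 to 22, X and Y were analysed with Python 3.11.15, pandas 2.3.3, numpy 2.4.6 and pysam 0.24.0, and annotated with GENCODE 44. Regions had a −log10 q of 10 or more, the threshold of the study, and were matched by an overlap of 1 bp. A list-only region had no region of the other list over it. Reads at the summit and the local background were solved from fold enrichment and −log10 p with scipy 1.17.1, and their 95% intervals are exact Poisson intervals for counting error only. The family scan, the recovery of reads and the matching were tested on simulated data. A site was open in a list when a region of that list overlapped its 20 bp by at least 1 bp. Ratios of paired regions were centred on the median of all pairs. Described one by one were CDKN1A, members with a p63 region without a CTR peak, members with an open site, the 5 with the most p63 regions, the 5 highest and 5 lowest paired ratios, and members without a region, of which there were none. The 36 members, the 33 other pathway genes and the rule were chosen with earlier results of these data known. The alternatives were other thresholds, overlaps, windows, equal list sizes, mismatch limits, spacers and a single decamer, and, added later, the nearest TSS. Coordinates are 1-based on GRCh38.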

Additional observations from a re-analysis of the deposited data

How the results depend on the processing

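No paired analysis was possible because 1 list was deposited per group with no value per replicate, although the labels number the replicates alike, and for the same reason no replicate could be left out. Of 77 alternative values, 49 stayed close to the value reported and 28 moved. Close meant within 1.5-fold for a count, and inside the interval of the reported value for a share or the median log2 ratio. For the share of open sites already open in CTR that interval was wide, 50.8% to 80.9%. Counts and shares cannot change sign, so only the median log2 ratio of member pairs could reverse, and none of its 6 alternatives did. With 10 kb around a TSS the regions fell to 81 in CTR and 93 in p63, of which 2 and 15 were list-only, and 97.5% of CTR regions stayed open. With 3 kb around a TSS and no gene body they fell to 49 and 53, of which 0 and 4 were list-only, the shares that overlapped rose to 100% of CTR and 92.5% of p63 regions, and 2 p63-only regions held a family site near the summit. With 50 kb, 22 and 52 regions were list-only. With all deposited peaks these were 26 and 42. Counting as list-only those regions that overlapped no peak at any −log10 q left 1 and 15, and shares of 99.3% and 90.3%. When regions were kept only if the nearest protein-coding TSS was a member's, an alternative chosen after seeing the data, 80 and 90 regions remained, with 5 and 16 list-only. The number of p63-only regions with a family site, 6 as reported, was 3 at a −log10 q of 20 or more, 1 with at most 2 mismatches, 11 with spacers of 0 to 13 bp between the decamers and 17 with a single decamer. The share of open sites already open in CTR stayed between 65.8% and 80% over its 10 alternatives, and the median log2 ratio of member pairs between 0.04 and 0.07 over its 6.

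The lists limit what can be said. They give no value per replicate, so a difference between CTR and p63 cannot be set against replicate spread. A region near the threshold can be list-only with similar reads on both sides. Sites without a peak have no value, and 3 mismatches in 20 bp is a loose match.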

Other observations

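Around 33 other genes of the p53 pathway (upstream kinases, family members and regulators, cell cycle targets and death machinery), 263 family sites were found, of which 3 were open in CTR, at TP53BP1 and APAF1, and 9 in p63. The largest count of p63-only regions stood at TP73, the gene of the third family member, with 8 p63 regions, of which 6 were p63-only and 5 overlapped no CTR peak, and 3 CTR regions. ATM, USP7, TP73 and BCL2L1 had open sites in p63 alone. TP73 and BCL2L1 were singled out after their values were seen.

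The members' regions were rich in G and C, with a median GC content of 59.2% within 100 bp of the summit of shared CTR regions, against 50.7% in the whole list. The AP-1 word TGACTCA or TGAGTCA, on either strand, was present within 100 bp of the summit in 17.9% of CTR and 18.8% of p63 regions at the members, against 26.9% and 25.4% of the whole lists. The KLF words GGGCGGGGC, GGGCGTGGC, GGGTGGGGC and GGGTGTGGC were present in 15.7% and 18.2%, against 7.40% and 7.14%. Of the 26 p63-only regions of the members, 1 held a KLF word (3.85%) and 4 the AP-1 word (15.4%). Among all p63-only regions the shares were 4.07% for a KLF word and 22.01% for the AP-1 word.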
